A study of Mus musculus with 4 samples.

Results

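The S100 calcium-binding proteins were followed on all 4 arrays of a Phf19 knockdown in F9 cells, a mouse embryonal carcinoma line. The set holds 9 genes (S100a1, S100a4, S100a6, S100a8, S100a9, S100a10, S100a11, S100a13 and S100b), and its probe sets were found by gene symbol: 12 of the 45037 probe sets tested were listed with one of these symbols alone. They cover 8 of the 9 genes, out of 18193 genes with a probe set of their own. S100a11 has no value here, because the 1 probe set listed with it is shared with other symbols. The 9 genes were chosen by symbol with the measured shPhf19-against-shVector changes of these arrays in view, so the changes below, and the calls made on them, describe these arrays and are no independent test of the family.

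The arrays compared shVector cells (2 arrays), which carried the empty pLKO.1 lentiviral hairpin vector, with shPhf19 cells (2 arrays), which carried the same vector with a short hairpin RNA against Phf19. Both were infected with lentivirus and kept as stable cells under puromycin. Phf19 encodes a Polycomb-like partner of the histone methyltransferase complex PRC2. The labels call the arrays biological replicates but do not say how many hairpins or separate infections they stand for, so the errors measure the spread between these arrays. Values are the deposited log2 expression values, which ran from 2.31 to 14.7 with array medians of 5.75 to 5.77 without detection calls; a dim reading may therefore be background. Replicate arrays correlated at 0.997 (shVector) and 0.998 (shPhf19). Phf19 itself was lower by 1 of its 2 probe sets: 1427920_at read 6.07 and 6.14 in shVector and 5.08 and 5.17 in shPhf19, or 50.7% of control, whereas 1431857_at read 6.32 and 6.11 against 6.05 and 6.26.

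S100 proteins are small proteins with a pair of EF-hand calcium-binding loops that mostly work as dimers. Calcium opens the dimer and exposes a surface that grips target proteins such as annexins, cytoskeletal motors and kinases, and some members are also released from cells and signal through receptors such as RAGE (Ager) and Tlr4. Most of the genes lie together on mouse chromosome 3, next to the epidermal differentiation complex, and each is used by its own range of cell types. All 10 embryonal carcinoma markers checked (Pou5f1, Sox2, Nanog and others) reached the array median and none passed the test between groups, although 4 of the 10 had an unadjusted p under 0.05 (limma). Over all genes 0.863% were called lower, 1.15% were called higher and 15.1% had an unadjusted p under 0.05. These 3 markers were named after their values were seen.

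S100a6 was the member with the large change, so its promoter is shown here beside those of S100a5 and S100a4, the S100 genes that precede it on the chromosome. Sequences are from RefSeq (GRCm38.p6), 5′ to 3′ on the gene's strand, from 250 bases before to 50 bases after the annotated start. All 3 lie on the + strand, at chr3:90612644-90612943 (S100a6), chr3:90608272-90608571 (S100a5) and chr3:90603520-90603819 (S100a4). Capitals mark matches on either strand to the TATA box (TATAAA), the AP-1 site (TGACTCA), the E-box (CACGTG) and the GC box (GGGCGG), and no matches overlapped.
S100a6: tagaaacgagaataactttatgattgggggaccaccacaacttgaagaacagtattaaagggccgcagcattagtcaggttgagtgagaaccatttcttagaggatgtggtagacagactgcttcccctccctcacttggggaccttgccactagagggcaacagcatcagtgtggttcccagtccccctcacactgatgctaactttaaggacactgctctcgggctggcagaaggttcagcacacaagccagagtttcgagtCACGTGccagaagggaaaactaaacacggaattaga
S100a5: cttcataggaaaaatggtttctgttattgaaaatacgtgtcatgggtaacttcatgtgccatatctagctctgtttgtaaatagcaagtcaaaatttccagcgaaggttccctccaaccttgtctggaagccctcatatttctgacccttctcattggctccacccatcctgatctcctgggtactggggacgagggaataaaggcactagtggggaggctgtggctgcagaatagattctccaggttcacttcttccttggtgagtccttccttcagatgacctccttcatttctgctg
S100a4: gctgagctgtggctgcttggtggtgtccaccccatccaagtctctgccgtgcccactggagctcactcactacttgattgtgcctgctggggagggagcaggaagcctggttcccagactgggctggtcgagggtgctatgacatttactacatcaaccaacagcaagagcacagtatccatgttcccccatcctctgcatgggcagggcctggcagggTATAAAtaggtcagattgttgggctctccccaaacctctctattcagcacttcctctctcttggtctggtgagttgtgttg
The S100a6 window held CACGTG, the E-box letters read by factors such as Usf1 and Myc, at bases 265 to 270, after the start. That hexamer occurs in 7.15% of 32841 promoter windows of this length, and among the members also in that of S100a11, at bases 28 to 33. The S100a4 window instead held TATAAA at bases 220 to 225 (13.6% of windows), and the S100a5 window held none of the 4 motifs. TATAAA also occurred in the windows of S100a8 and S100a9. CpG dinucleotides numbered 6 in S100a6, 3 in S100a5 and 2 in S100a4, against a median of 7 over all windows. These matches are letters in a window and show no binding.

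S100a6, also called calcyclin, is abundant in dividing fibroblasts and epithelial cells and binds the ubiquitin ligase adaptor Cacybp. Its single probe set, 1421375_a_at, read 8.51 and 8.84 in shVector and 7.35 and 7.57 in shPhf19 (log2 expression). The lower shVector array thus stood well above the higher shPhf19 array, and the gap between groups exceeded the gap within either. The group means were 8.68 ± 0.23 (SD, n = 2) and 7.46 ± 0.16, a change of -1.22 ± 0.13 (limma's moderated SE) with a 95% interval from -1.54 to -0.89. On a linear scale the signal was 2.32-fold lower, at 43.1% of control. In these bulk samples fewer cells that express S100a6 and less S100a6 RNA per cell cannot be told apart. Among all 45037 probe sets, 22 fell by as much or more, S100a6 included, which is 0.0488%.

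S100a6 was the only probe set of the 12 below the threshold of the whole-array test (limma, adjusted p = 0.0153 by Benjamini-Hochberg across the array). Across the array 0.582% of probe sets were called lower and 0.83% higher. Since the gene was chosen for this contrast, nothing is read from that count. The call needs all 4 arrays: the limma adjusted p was 0.108 without shVector replicate 1 and 0.149 without shVector replicate 2. It was 0.761 without shPhf19 replicate 1 and 0.568 without shPhf19 replicate 2. The change itself then ran from -1.38 to -1.05. With the replicate number as a block the limma adjusted p was 0.203 at the same change.

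**Figure D1:**
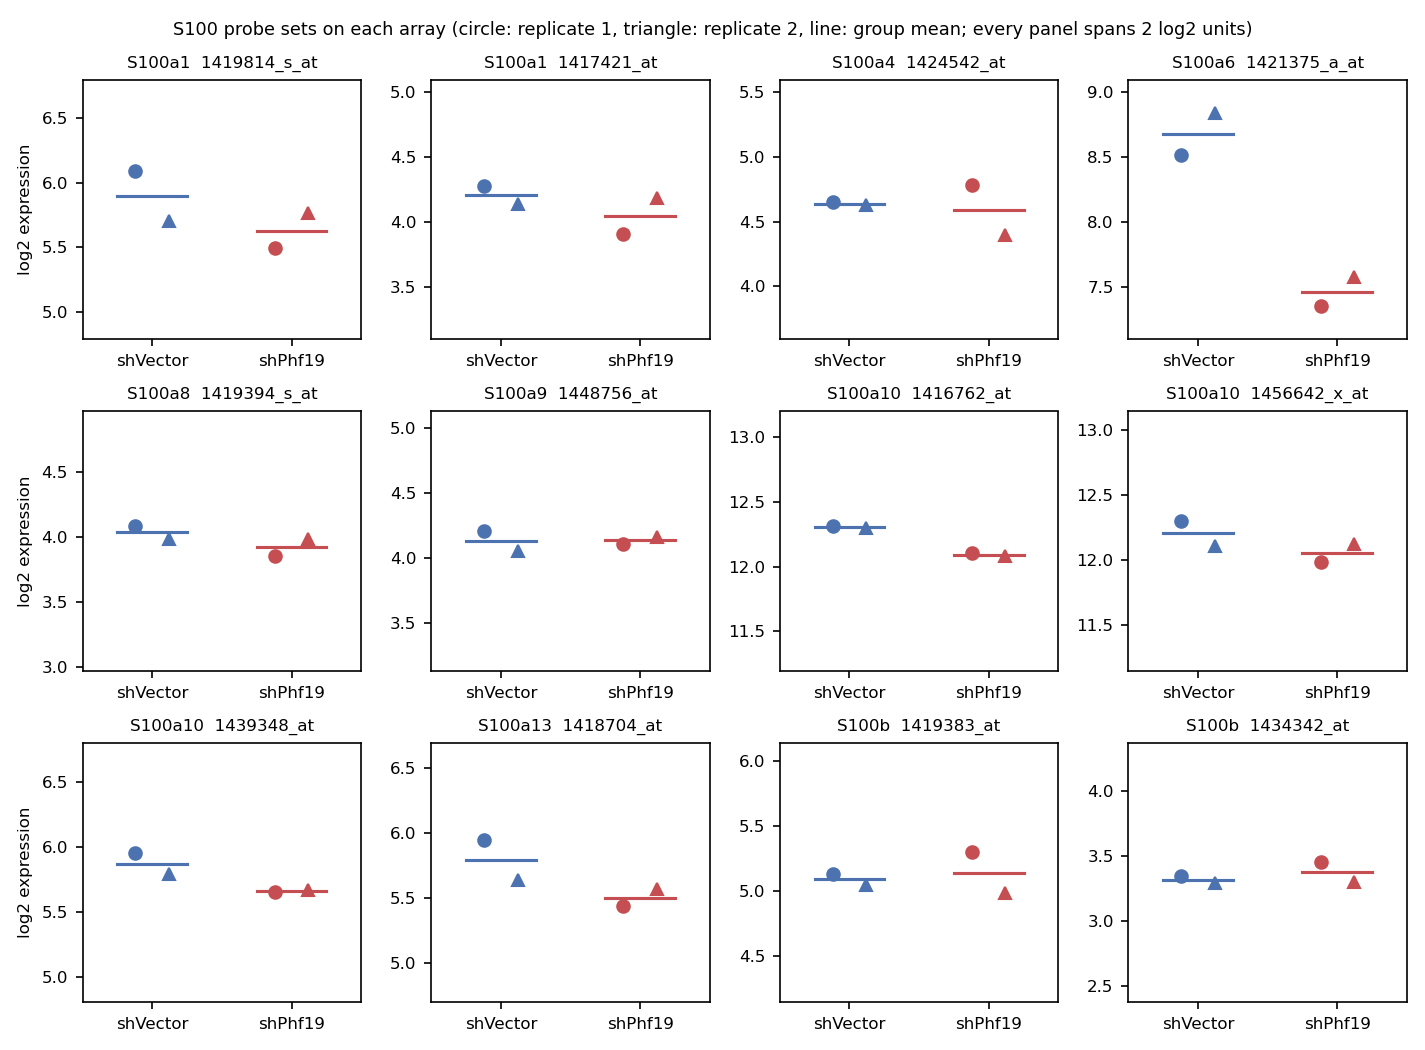
Log2 expression of the 12 S100 probe sets in shVector (blue) and shPhf19 (red); circles are replicate 1, triangles replicate 2, lines group means, and every panel spans 2 log2 units. S100a6 drops from 8.51 and 8.84 to 7.35 and 7.57, while no other probe set changes by more than 0.29.

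The other members that reached the array median were S100a10, S100a13 and 1 probe set of S100a1. S100a10, or p11, has lost calcium binding and is found in a complex with annexin A2 at the membrane. Its main probe set, 1416762_at, read 12.31 and 12.30 in shVector and 12.10 and 12.08 in shPhf19. The groups did not overlap and the replicates lay close together, but the step was small: -0.21 ± 0.05 (SE), or 86.4% of control, with a limma adjusted p of 0.115. Probe set 1439348_at gave the same change, -0.21 ± 0.10, from 5.95 and 5.79 to 5.65 and 5.67. Probe set 1456642_x_at, whose suffix marks probes that can also bind other transcripts, read 12.30 and 12.10 in shVector and 11.98 and 12.12 in shPhf19, so its groups overlapped (-0.15 ± 0.08). All 3 probe sets lay below 0 without passing the test. Only 1416762_at kept its size on any 3 arrays (-0.22 to -0.20). Without shVector replicate 1, 1456642_x_at was at -0.05 and 1439348_at at -0.13, and without shPhf19 replicate 1, 1456642_x_at was at -0.08. Without shVector replicate 2 they were at -0.25 and -0.29.

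S100a13 takes part in the unconventional export of Fgf1 and Il1a, and S100a1 is a regulator of calcium release in heart and skeletal muscle. S100a13 (1418704_at) read 5.95 and 5.64 in shVector and 5.44 and 5.57 in shPhf19. The groups did not overlap, but the shVector arrays differed from each other by 0.31, about as much as the change of -0.29 ± 0.13 (SE). S100a1 (1419814_s_at) read 6.09 and 5.70 in shVector and 5.49 and 5.76 in shPhf19. Here the groups overlapped, and the change was -0.27 ± 0.16. Its second probe set, 1417421_at, was dimmer and also overlapped, at 4.28 and 4.14 against 3.91 and 4.18 (-0.16 ± 0.12). Neither gene passed the test, and single arrays set much of their size. Without shVector replicate 1, S100a13 was at -0.14 and S100a1 at -0.08 (1419814_s_at) and -0.09 (1417421_at). Without shVector replicate 2, S100a13 was at -0.45 and S100a1 at -0.46 (1419814_s_at) and -0.23 (1417421_at). Without shPhf19 replicate 1, S100a1 was at -0.13 and -0.02 by the same probe sets, and without shPhf19 replicate 2 at -0.40 and -0.30.

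S100a1 and S100a13 are divergent neighbours, so the S100a13 window (+ strand, chr3:90514185-90514484, RefSeq GRCm38.p6) is shown with the 204 bases it shares with the S100a1 window of the other strand in capitals, bases 97 to 300.
S100a13: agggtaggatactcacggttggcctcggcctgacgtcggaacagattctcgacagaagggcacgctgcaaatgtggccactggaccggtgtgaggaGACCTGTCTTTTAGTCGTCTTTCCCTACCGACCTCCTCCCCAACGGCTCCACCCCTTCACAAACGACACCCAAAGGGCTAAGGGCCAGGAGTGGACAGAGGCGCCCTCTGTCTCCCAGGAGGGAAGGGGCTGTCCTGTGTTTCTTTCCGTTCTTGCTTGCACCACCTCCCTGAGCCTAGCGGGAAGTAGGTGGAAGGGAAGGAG
None of the 4 motifs occurred in either window. The S100a13 window held 14 CpG dinucleotides and the S100a1 window 11. Of the 9 members, 8 had a window in the RefSeq table.

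The remaining members had values below the array median in both groups and shifted little. S100a4, a binder of non-muscle myosin known from metastatic cells and fibroblasts, read 4.65 and 4.62 in shVector and 4.79 and 4.40 in shPhf19 (-0.05 ± 0.14 SE); the shPhf19 arrays lay on either side of the control arrays, and the change ran from -0.24 without shPhf19 replicate 1 to 0.15 without shPhf19 replicate 2. S100a8 and S100a9 form calprotectin, the main calcium-binding complex of neutrophils. S100a8 read 4.09 and 3.99 against 3.85 and 3.99 (-0.12 ± 0.10), so its groups were parted only in digits not printed. S100a9 read 4.20 and 4.05 against 4.11 and 4.16 (0.01 ± 0.10) and overlapped. S100b, the S100 protein of astrocytes and Schwann cells, read 5.13 and 5.05 against 5.30 and 4.98 with 1419383_at (0.05 ± 0.13) and 3.35 and 3.29 against 3.46 and 3.30 with 1434342_at (0.06 ± 0.10). The 95% intervals of these 5 probe sets lay between -0.39 and 0.36, so a fall of the size of S100a6 was outside each of them on the deposited scale. That scale can compress changes of dim probe sets, and the dimmest could hardly have shown such a fall. S100b by 1434342_at averaged 3.32 in shVector, and the lowest value on any array was 2.31.

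Across the 12 probe sets, 9 changed below 0 and 3 above, with a median of -0.16 against -0.01 for all probe sets, of which 51.8% were below 0. Both shPhf19 arrays lay below both shVector arrays for 5 of the 12 (S100a6, S100a8, S100a13 and 2 of S100a10), which held for 21% of all probe sets, and above them for none (19.4%). The arrays did not share this shift evenly. shVector replicate 1 was the highest array for 8 of the 12 probe sets, against 29% of all probe sets, and shPhf19 replicate 1 was the lowest for 7, against 24.5%. shVector replicate 1 also had the highest 3′ over 5′ signal of the beta-actin control (1.16 on the log2 scale, against 0.83 to 1.03 on the other arrays) and of the Gapdh control (0.51 against 0.26 to 0.41), a measure of RNA integrity and labelling. Without that array 9 of the 12 probe sets were still below 0 (49.3% of all probe sets), with a median of -0.07, and S100a6 stood at -1.38. Without shPhf19 replicate 1, 11 were below 0 with a median of -0.12. Without shVector replicate 2 the median was -0.22, and without shPhf19 replicate 2 it was -0.21. The part of RNA integrity in the small shifts was not tested.

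Next to S100a6 on the chromosome, no measured gene changed by a comparable amount, but most of the S100 genes compared were dim. S100a3, S100a4, S100a5, S100a8, S100a9 and S100a14 read below the array median in both groups, whereas S100a16 reached it. A dim reading may be background, where a fall could hardly show. In the RefSeq order on chromosome 3, S100a6 is preceded by S100a4 (-0.05) and S100a5 (0.04 ± 0.11 SE), whose probe set read 4.07 and 3.99 in shVector and 4.17 and 3.97 in shPhf19, and the next S100 genes with a probe set of their own are S100a8 (-0.12) and S100a9 (0.01). S100a16, S100a14 and S100a3, farther upstream between S100a13 and S100a4, were at -0.01 ± 0.12, 0.07 ± 0.09 and 0.01 ± 0.15. A wider count took 22 neighbouring genes within and beside all 3 runs of S100 genes. S100a6 lies in 1 of these runs, and the S100b run is on chromosome 10. None of the 22 passed the test (limma), 1 had an unadjusted p under 0.05, and the median change was 0.01. Of all genes 0.863% were called lower, 1.15% higher and 15.1% had an unadjusted p under 0.05, so nothing is read from that count. S100a3, S100a5, S100a14 and S100a16 were named after their values were seen.

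**Figure D2:**
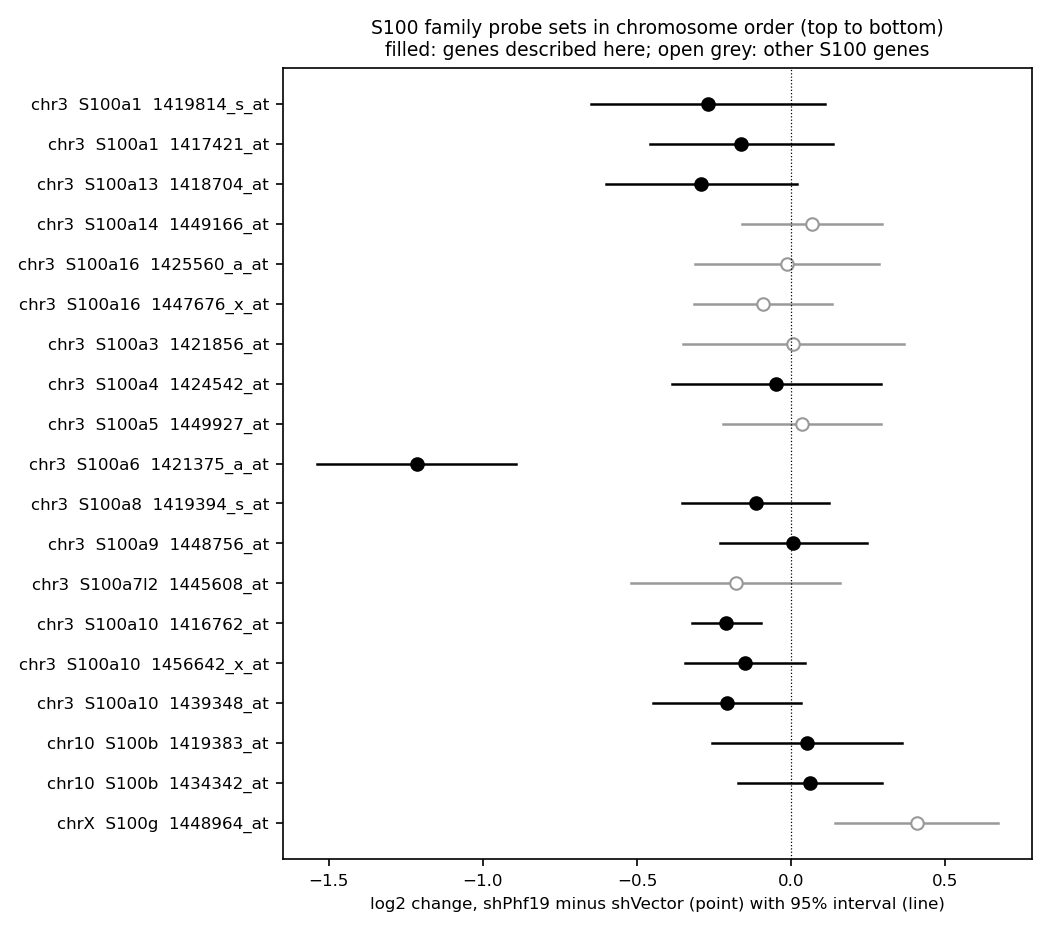
Log2 change (shPhf19 minus shVector, points) with 95% limma intervals (lines) of all S100 family probe sets, from top to bottom in chromosome order; filled points are the genes described, open grey points other S100 genes. S100a6 stands at -1.22, apart from its neighbours S100a5 at 0.04 and S100a8 at -0.12, which read below the array median in both groups.

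Of 6 S100 genes outside the set with a probe set, none passed the test (limma, 1 with an unadjusted p under 0.05). For all genes the shares were 0.863% called lower, 1.15% called higher and 15.1% with an unadjusted p under 0.05. Nothing is therefore read from the counts of these short lists. Their median change was 0.02. S100a3, S100a5, S100a7l2, S100a14 and S100a16 of this list were also counted among the neighbours above, so the lists overlap. The nearest to the threshold was S100g, the vitamin D-dependent calbindin-D9k of gut, kidney and uterus. It read 3.54 and 3.72 in shVector and 3.96 and 4.11 in shPhf19, a shift up of 0.41 ± 0.11 (SE; limma adjusted p = 0.181) at a level far below the array median. S100a7l2 was at -0.18 ± 0.14. Of 5 fused S100 genes of the epidermal differentiation complex, which join an S100 domain to long repeats, none passed either (1 with an unadjusted p under 0.05). Rptn, Tchh and Tchhl1 of this list, named only for the overlap, were also neighbours. Flg, which encodes filaggrin, was at -0.32 ± 0.09, from 3.02 and 3.04 to 2.76 and 2.65, and Hrnr at 0.12 ± 0.10.

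Genes of proteins that S100 members bind, or through which they signal, were followed as a list. None of 35 passed the test (limma), and 4 had an unadjusted p under 0.05. Among all genes 0.863% were called lower, 1.15% higher and 15.1% had an unadjusted p under 0.05, so nothing is read from these counts. By sign 16 of the 35 were below 0 and 19 above, with a median of 0.00 beside 0.00 for all genes. For S100a6, the partner Cacybp was at 0.05 ± 0.07 (SE) and Sugt1, which encodes another S100a6-binding co-chaperone, at -0.06 ± 0.06. For S100a10, Anxa2 was at 0.00 ± 0.11 and the giant scaffold gene Ahnak, whose product binds the S100a10 and annexin A2 complex, at -0.26 ± 0.06 (10.45 and 10.43 in shVector, 10.20 and 10.16 in shPhf19, without overlap). Cacybp, Sugt1, Anxa2 and Ahnak were chosen for mention after their values were seen.

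The smallest p in that list belonged to the ryanodine receptor genes, whose products S100a1 binds in muscle. Ryr2 read 4.63 and 4.85 in shVector and 5.34 and 5.31 in shPhf19, a shift of 0.59 ± 0.11 (SE; limma adjusted p = 0.0698). Ryr1 read 4.24 and 4.35 against 4.73 and 4.97, a shift of 0.56 ± 0.12 (limma adjusted p = 0.0968). Both were below the array median, and their second probe sets gave -0.09 ± 0.09 for Ryr2 and 0.07 ± 0.09 for Ryr1. The receptor genes Ager (0.22 ± 0.09) and Tlr4 (-0.08 ± 0.09), also named after their values were seen, did not pass. Another Ager probe set gave 0.05 ± 0.11, and the other Tlr4 probe sets, all below the array median, gave 0.08, 0.23 and 0.11. Among 28 EF-hand genes outside the family none passed (limma), against 0.863% of all genes called lower and 1.15% higher. An unadjusted p under 0.05 was found for 5 of the 28, against 15.1% of all genes. Hpcal1, a neuronal calcium sensor gene, came closest at 0.54 ± 0.10 (limma adjusted p = 0.0705), followed by Calu, which encodes calumenin of the secretory pathway, at -0.17 ± 0.06.

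**Figure D3:**
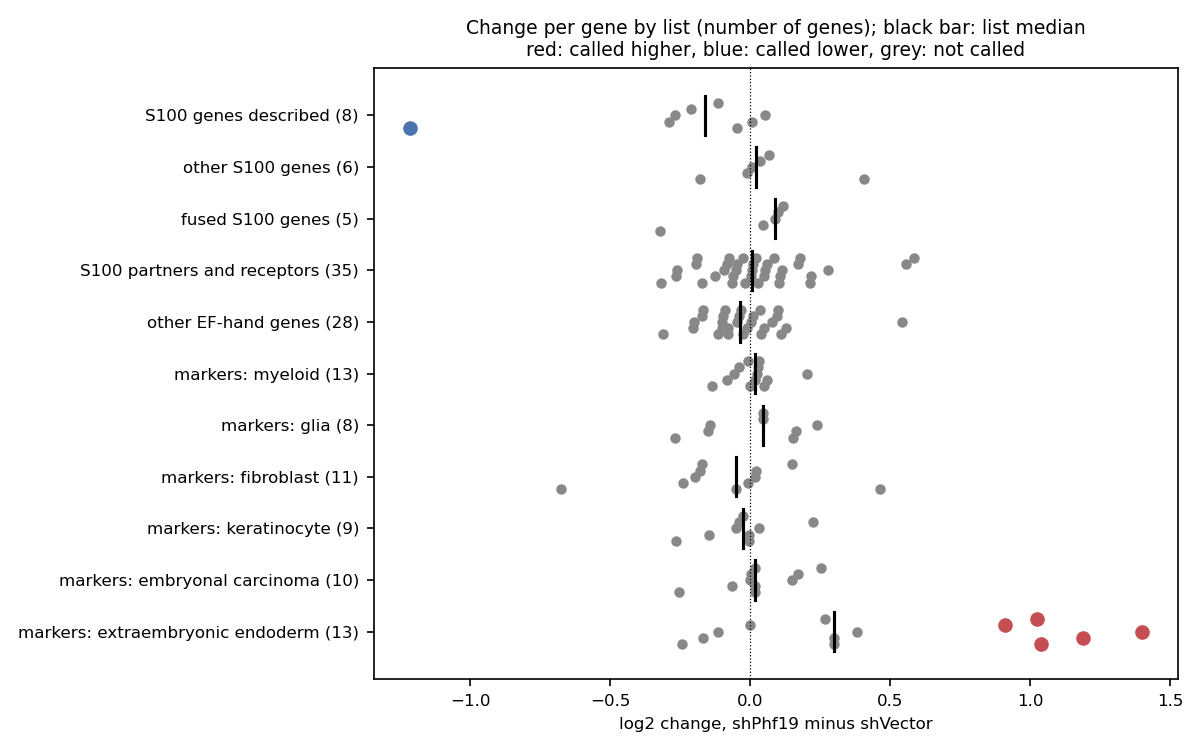
Log2 change per gene (points; shPhf19 minus shVector) for the S100 genes, related lists and cell type markers, with the number of genes in brackets; black bars are list medians, blue points were called lower, red higher and grey were not called. S100a6 is the only coloured point outside the 13 extraembryonic endoderm markers, of which 5 are red.

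Markers of cell types known for S100 genes were read beside S100a6. None passed among 13 myeloid, 8 glial, 11 fibroblast and 9 keratinocyte markers (limma; unadjusted p under 0.05 for 0, 2, 2 and 1 of them, against 15.1% of all genes), and 1, 4, 3 and 3 of them reached the array median in either group. Their summed linear signal ran from 351 to 360 in shVector and 349 to 358 in shPhf19 for the myeloid list, and from 630 to 639 and 631 to 647 for the glial list. Much of the glial sum came from its brightest gene, Foxd3, which read 8.26 and 8.40 in shVector and 8.42 and 8.33 in shPhf19. The fibroblast list summed to 368 to 379 in shVector and 342 to 361 in shPhf19, and the keratinocyte list to 600 to 616 and 572 to 613. The lower fibroblast sum in shPhf19 rested on Pdgfrb, a receptor gene of mesenchymal cells, which read 6.39 and 6.44 against 5.55 and 5.93 without passing the test (limma adjusted p = 0.0923). Without Pdgfrb the other 10 genes summed to 284 and 292 in shVector and to 295 and 299.98 in shPhf19. That sum included Thy1, which shifted up, from 5.64 and 5.70 to 6.28 and 5.99, so its direction says little about the remaining genes. Of 13 extraembryonic endoderm markers, 5 were called higher (Lamb1, Col4a1, Col4a2, Dab2 and Gata6), opposite in direction to S100a6, and none was called lower. The shares over all genes were 1.15% called higher and 0.863% lower. By sign alone, 9 of the 13 markers were above 0 and 4 below. Sox7 was among the 4, at 9.26 and 9.55 in shVector against 9.16 and 9.16 in shPhf19 (-0.24 ± 0.11 SE). The summed signal of the 13 markers went from 4883 and 4909 in shVector to 5952 and 5995 in shPhf19. The 5 called markers, Sox7, Foxd3, Thy1 and Pdgfrb were picked for mention with their values known. The part of endoderm-like cells in the fall of S100a6 was not tested.

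The genes whose values over the 4 arrays lay closest to those of S100a6 were Tex19.1, As3mt, B230217C12Rik, Rab12 and Camta1, by Euclidean distance after each was centred on its own mean (0.22 to 0.26 log2 units). Tex19.1, a germline and pluripotent cell gene, read 8.28 and 8.52 in shVector and 7.33 and 7.37 in shPhf19. As3mt, an arsenic methyltransferase gene, read 7.76 and 7.92 against 6.65 and 6.97. The small GTPase gene Rab12 changed by -1.01 ± 0.11 (SE), the transcription factor gene Camta1 by -1.10 ± 0.09 and B230217C12Rik by -1.38 ± 0.10. The member that changed most upward, S100b by 1434342_at, had no change to match; the 5 closest genes (Gm20767, Vinac1, Tnfrsf1b, Abcc8 and A230057D06Rik) changed by 0.05 to 0.08.

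**Figure D4:**
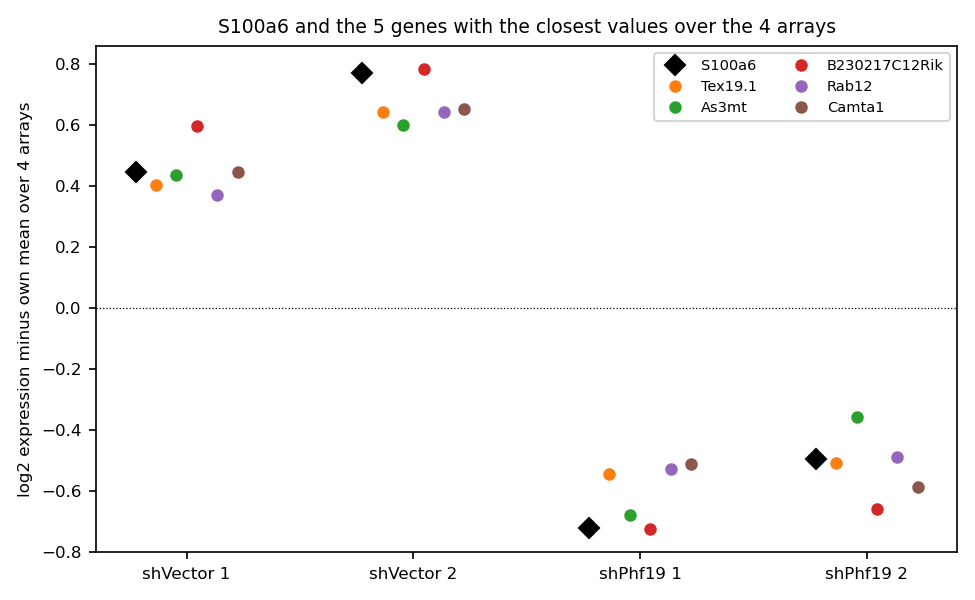
Log2 expression on each array minus the gene's own mean over the 4 arrays, for S100a6 (black diamonds) and the 5 genes closest to it (coloured circles). All 6 lie above 0 on both shVector arrays and below 0 on both shPhf19 arrays. For the 5 genes this follows from their choice by these same values.

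**Figure D5:**
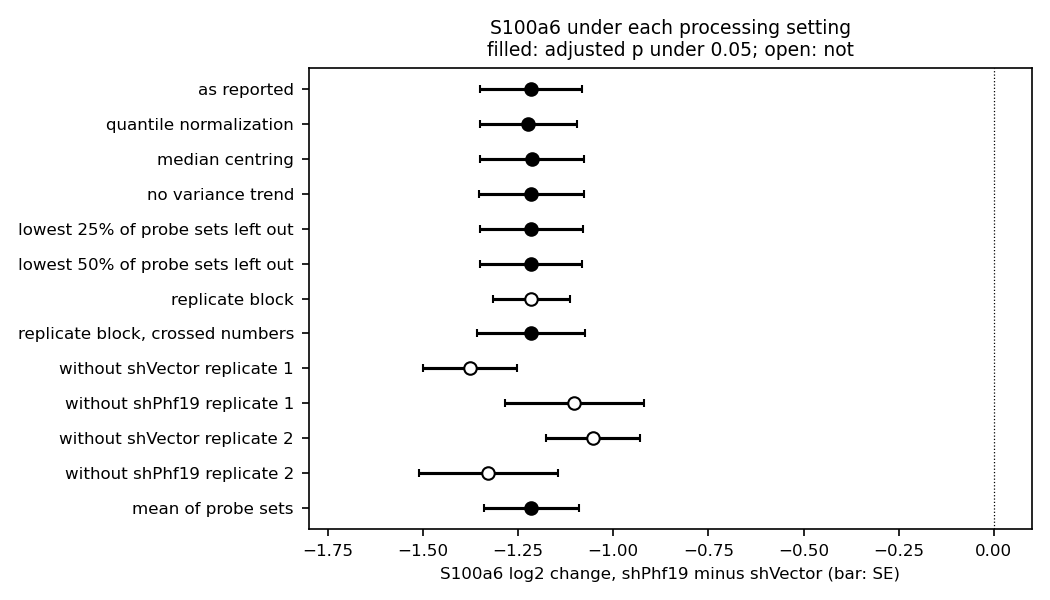
S100a6 log2 change (points) with limma's SE (bars) under each processing setting; filled points have an adjusted p under 0.05, open points do not. The change stays between -1.38 and -1.05, and the open points are the 4 fits without 1 array and the fit with a replicate block.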

How the data were processed

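Total RNA of 4 F9 cultures was hybridised to Affymetrix mouse arrays after biotin labelling, per the labels' protocols. The deposited table holds log2 expression values, 1 per probe set and array; the scale and the arrays' common normalization were read from the deposited values, and the software was not named in the sources used here. Of 45101 probe sets, 64 controls were left out. GEO's platform annotation gave 34945 probe sets 1 gene symbol, 932 several and 9160 none; RefSeq gene numbers changed 0 symbols. A gene in a list was represented by its probe set with the highest mean.

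Groups were compared as shPhf19 minus shVector with limma 3.58.1 in R 4.3.3 (lmFit, eBayes with an intensity trend, two-sided, Benjamini-Hochberg over 45037 probe sets, threshold 0.05, no filter on level), which was tested on simulated data. The fit has 2 residual degrees of freedom, and the number of arrays limits precision. Members and lists were chosen with earlier results of these data known. Named were all members, the passing genes of each list other than the cell type markers (up to 4 per direction) or the 2 with the smallest p, passing chromosome neighbours, and the 5 genes nearest in profile; others, markers included, are said to be named afterwards. Alternatives were 2 scalings, 2 filters on low values, no variance trend, means of probe sets, a replicate block and leaving out each array. As a check of pairing, the departures of replicates with a shared number from their group mean correlated at -0.197, and no label ties the numbers, so no block was used.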

Additional observations from a re-analysis of the deposited data

How the results depend on the processing

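The S100a6 fall kept its sign in all 12 alternatives, with changes from -1.38 to -1.05, and its call in 7 of them, with limma adjusted p from 0.0057 (quantile normalization) to 0.761 (without shPhf19 replicate 1). With the replicate number as a block, limma called 0 probe sets overall and 0 of the S100 probe sets, against 636 and 1 in the fit without it; 3890 probe sets and 2 S100 probe sets then had an unadjusted p under 0.05, and the cause was not tested. A block with crossed numbers, chosen after seeing the data, called 596 probe sets and 1 S100 probe set. Without a variance trend 380 probe sets were called, S100a6 among them, and the cause was not tested. Without any 1 array, 0 probe sets and 0 S100 probe sets were called, with 2539 to 6942 and 2 to 6 at an unadjusted p under 0.05; such a fit has fewer arrays and assumes that the lone array varies like the other group. No other S100 or partner gene was called in any setting run. Of the 12 S100 probe sets, 8 kept their sign in every setting in which they were measured, and S100a4, S100a9 and both of S100b, all near 0, did not. Leaving out 1 array moved S100a1 by 1419814_s_at between -0.46 and -0.08 and S100a13 between -0.45 and -0.14. The filters on low values removed up to 7 of the 12 probe sets.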
